A study of Rattus norvegicus with 32 samples.

Results

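Sugar enters and leaves the cells of the small intestine and the liver through 2 families of membrane carriers. The Slc2 family (the GLUT proteins) moves hexoses down their gradient, whereas members of the Slc5 family (the SGLT proteins) pull glucose in with sodium. In the absorptive cell of the gut, glucose and galactose are taken up from the lumen with sodium, fructose crosses by facilitated transport, and the sugars leave toward the blood through Slc2a2. In the hepatocyte the same Slc2a2 protein carries glucose both ways. The 9 carriers looked up by gene symbol were 7 of the Slc2 family (Slc2a1, Slc2a2, Slc2a3, Slc2a4, Slc2a5, Slc2a8 and Slc2a9) and 2 of the Slc5 family (Slc5a1 and Slc5a2). A gene was represented by a transcript cluster (the set of exon probes that the array groups as 1 gene) annotated with that symbol alone, and the cluster with the highest mean over all arrays was used. Of the 9 carriers 8 had such a cluster, each exactly 1, among 13215 genes named in this way. Slc5a1, the sodium-linked carrier that takes glucose and galactose from the lumen, had none and is not analysed here.

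Transcripts were measured on 32 Affymetrix Rat Exon 1.0 ST arrays. The 8 groups were liver, duodenum, jejunum and ileum of lactating Sprague-Dawley dams on lactation day 10 or 11 and of age-matched virgin female controls. All rats of both states were killed at 16 h by the clock, after 10 h of light. There were 16 rats in each state and RNA of 4 rats made up 1 pool, which gives 4 pools per group, the same rats contributing every tissue. Pooling averages over rats, so the spread between individual animals was not measured. The intestinal material was scraped mucosa, so a level reflects all cells in a scrape, and fewer cells of a type and less RNA per cell cannot be told apart. All values are log2 RMA signals, where a difference of 1 is a doubling of the signal, and levels of different genes are not compared because probes differ in brightness.

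The tissue labels fitted their markers. The mean of 8 hepatocyte markers ranged from 13.09 to 13.21 in liver pools and up to 4.50 in intestinal pools, and the mean of 6 enterocyte markers ranged from 11.88 to 13.06 in intestinal pools and up to 5.78 in liver. Slc10a2, the ileal bile acid carrier, ranged from 12.21 upward in ileal pools and up to 7.22 elsewhere. Control jejunal pool 1 stood apart for Fabp6, the ileal bile acid binding protein, at 10.5 against 5.68 to 6.79 in the other 3 control jejunal pools. Among 7 pancreatic acinar markers, the list mean averaged 11.6 in control duodenum (10.9 to 12.1) and 7.12 in lactating duodenum (5.03 to 9.85), and all 7 genes were called lower in lactation there. Array medians lay between 4.68 and 4.87.

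Along the intestine, the 2 carriers of the hexose exit and fructose uptake routes, Slc2a2 and Slc2a5, had their highest means in the jejunum and their lowest in the ileum, in both virgin and lactating rats. Slc2a1 and Slc2a3 ran the other way, with their highest values in the ileum. A difference was called at a Benjamini-Hochberg adjusted p under 0.05 in limma, adjusted over all 19434 clusters. In control rats 5 of the 8 carriers were called between jejunum and ileum, 3 higher in jejunum (Slc2a2, Slc2a5, Slc2a9) and 2 higher in ileum (Slc2a1, Slc2a3), where 26.1% of all clusters were called, 7.89% higher in jejunum and 18.2% higher in ileum. In lactating rats the same 5 were called in the same directions, with 30.4% of all clusters called, 9.95% and 20.4% in these directions. The 5 control calls also stood without control pool 1, the pool set apart by Fabp6. The median jejunum minus ileum difference of the carriers was 0.10 in controls and 0.12 in lactating rats, and that of all clusters was -0.02 and 0.00.

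**Figure D1:**
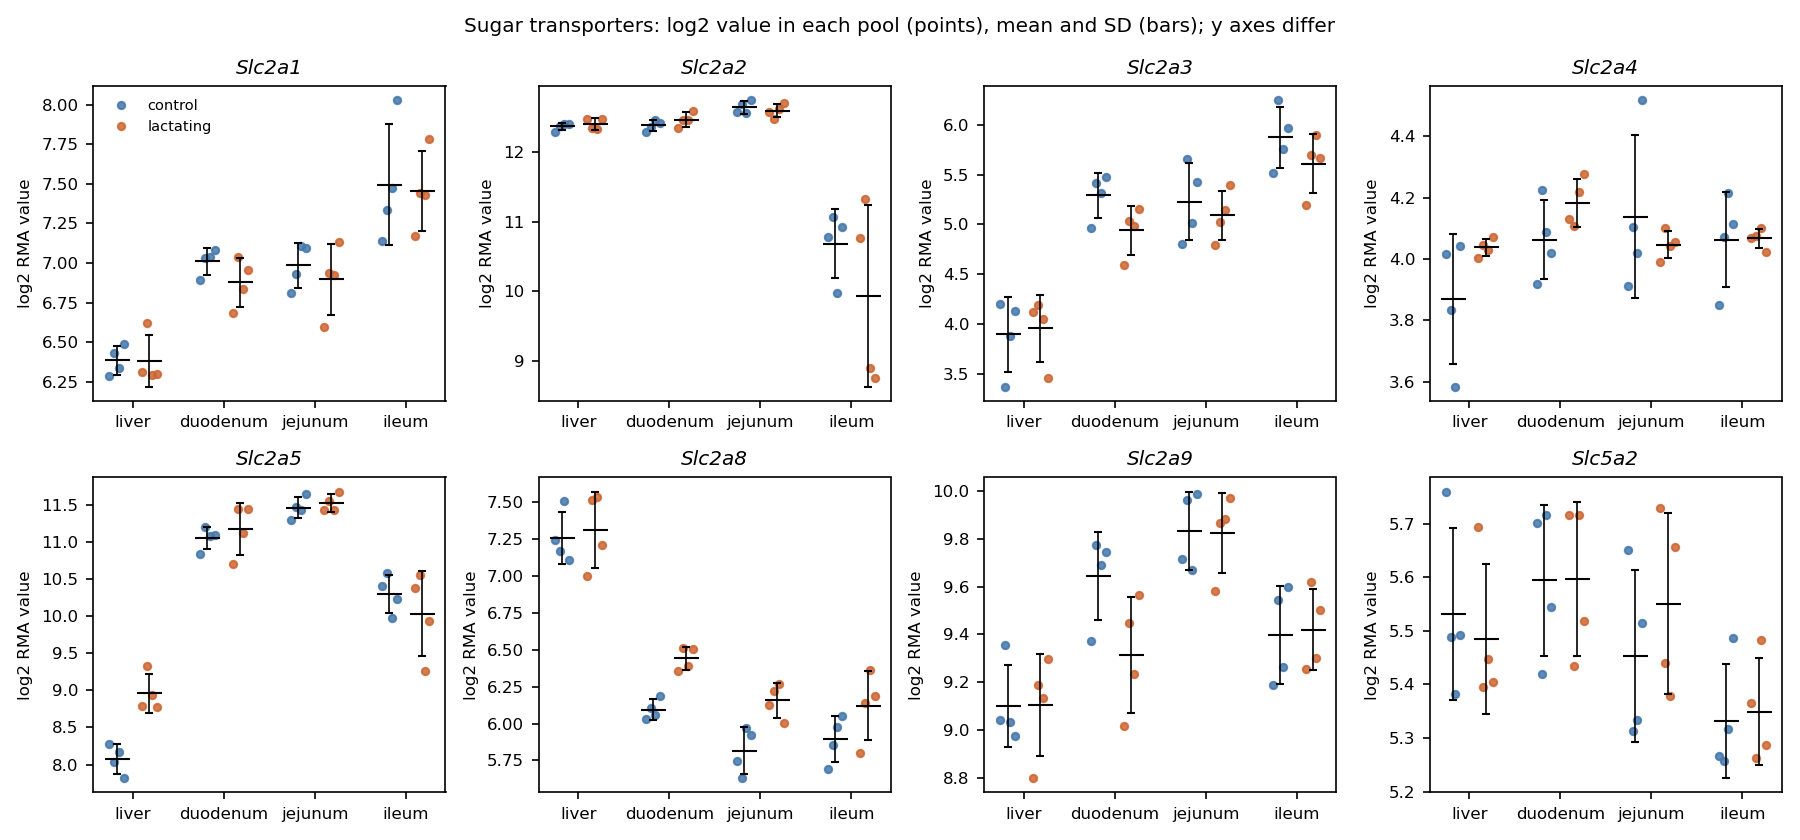
Log2 RMA value of each carrier (y axis, its own scale in each panel) in every pool of control (blue) and lactating (orange) rats by tissue; points are pools, bars the mean and SD of 4 pools. Slc2a2 fell from 12.6 in jejunum to 10.7 in control ileum and 9.93 in lactating ileum, and the control and lactating liver pools of Slc2a5 did not overlap.

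Slc2a2 encodes the low-affinity carrier through which glucose, galactose and fructose leave the enterocyte. The 4 control jejunal pools read 12.57, 12.69, 12.56 and 12.74, and the control ileal pools 10.78, 11.07, 9.97 and 10.92. Every jejunal pool was above every ileal pool. The mean difference was 1.96 ± 0.32 (SE), a 3.88-fold higher signal in jejunum (adjusted p = 2.35e-05, limma). Control duodenum was at 12.29, 12.36, 12.46 and 12.42, 1.70 above ileum (adjusted p = 0.000179, limma). In lactating rats the jejunum read 12.57, 12.48, 12.62 and 12.71 and the ileum 10.76, 11.32, 8.89 and 8.75. Lactating ileal pools 3 and 4 were thus lower than any other pool of the series. The jejunum stood 2.66 above the ileum in lactation (adjusted p = 1.38e-07, limma) and the duodenum 2.53 (adjusted p = 5.15e-07, limma). These 4 differences were called under all alternative settings tried.

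The spread of Slc2a2 was uneven. Its SD over 4 pools was 1.30 in lactating ileum and 0.49 in control ileum, and ranged from 0.05 to 0.10 in the other 6 groups. Because 1 residual variance per gene was fitted over all arrays, differences between the tight groups carried the wide error of the ileum. The same variance was narrower than the spread of the lactating ileal pools. Standard errors, intervals and adjusted p-values of Slc2a2 comparisons with lactating ileum may thus be too small. No alternative tried gave each group its own variance of this gene. Control duodenum lay below control jejunum without overlap of the pools, but the difference of -0.26 was not called (adjusted p = 0.704, limma). In a fit without the ileal arrays, chosen after the spread was seen, the standard error was 0.07 and the difference was called (adjusted p = 0.0159, limma). The same lactating ileal pools 3 and 4 were low for lactase (Lct), the brush border enzyme of milk sugar, at 5.43 and 6.26 against 8.12 and 9.33 in pools 1 and 2. The part of this shared spread in the Slc2a2 values was not tested.

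Slc2a5 encodes the fructose carrier of the intestine. Control jejunum was at 11.30, 11.48, 11.44 and 11.65, and control ileum at 10.41, 10.59, 9.98 and 10.23, so all jejunal pools were higher. The difference of 1.16 ± 0.19 corresponded to a 2.24-fold higher signal in jejunum (adjusted p = 1.81e-05, limma). Control duodenum, at 10.85, 11.20, 11.09 and 11.10, exceeded ileum by 0.76 (adjusted p = 0.00318, limma). It lay below jejunum in all 4 pools, and that difference of -0.41 was not called (adjusted p = 0.169, limma). In lactating rats the ileum read 10.38, 10.55, 9.27 and 9.93 and the jejunum 11.44, 11.56, 11.44 and 11.68. The signal in lactating jejunum was 2.82-fold that in ileum (adjusted p = 2.56e-07, limma), and the duodenum exceeded ileum by 1.15 (adjusted p = 2.55e-05, limma). Each called segment difference of Slc2a5 was also called under every alternative setting tried.

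The stretch just before the transcription start is shown for these 2 carriers because their signals fell together from jejunum to ileum. The sequences are the 250 bases upstream of the start that the RefSeq promoter table gives, build GRCr8, 5′ to 3′ on the gene's strand, at chr2:113540120-113540369 for Slc2a2 and chr5:165865929-165866178 for Slc2a5, both on the plus strand. Both windows lie inside the gene's whole RefSeq span, whose first base is further upstream, so they belong to an internal start and not to the outermost one. Capitals mark letter matches on either strand to 1 of 7 short motifs.
Slc2a2: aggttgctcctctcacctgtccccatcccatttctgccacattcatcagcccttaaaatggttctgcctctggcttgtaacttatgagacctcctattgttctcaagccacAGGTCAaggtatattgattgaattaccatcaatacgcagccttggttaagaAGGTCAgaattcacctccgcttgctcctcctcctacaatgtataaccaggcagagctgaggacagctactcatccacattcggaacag
Slc2a5: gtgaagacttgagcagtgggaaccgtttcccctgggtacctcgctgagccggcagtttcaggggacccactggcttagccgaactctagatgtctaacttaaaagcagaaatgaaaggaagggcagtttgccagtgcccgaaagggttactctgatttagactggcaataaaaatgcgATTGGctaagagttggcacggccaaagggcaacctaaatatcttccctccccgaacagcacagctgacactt
The capitals in Slc2a2 are 2 matches to AGGTCA, a core recognition element of many nuclear receptors, which 14.1% of the 33469 rat promoters of this table hold at least once over the same length. The capitals in Slc2a5 are 1 match, on the reverse strand, to the CCAAT box, which 34.0% hold. These 2 motifs were added after the sequences had been seen. Neither window held the letters of the other 5 motifs searched. These were the TATA box, spelled TATAAA and present in 12.9% of promoters, the core GTTAAT of Hnf1 elements (6.45%), the element TTTATG bound by Cdx factors (11.4%), the element AGATAA bound by GATA factors (10.3%) and the E box CACGTG of carbohydrate response elements (5.59%). A match is a description of the letters only, and no binding was measured.

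The genes whose pattern over the 24 intestinal arrays was most like that of Slc2a2 or Slc2a5 were found among 6683 genes with a mean of at least 6 in 1 intestinal group. For Slc2a2 they were Cyp4f1, a fatty acid hydroxylase (Pearson r = 0.968), G6pc1, the catalytic unit of glucose-6-phosphatase (0.963), and Slc46a1, the proton-coupled folate carrier (0.961). For Slc2a5 they were Gpr39, a zinc-sensing receptor (0.970), Lct (0.961) and Slc36a1, a proton-coupled amino acid carrier (0.960). Slc2a5 itself ranked 19 in the list of Slc2a2 (0.937). The arrays share segments and pools, so these values describe likeness only.

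Slc2a9, a carrier better known for urate than for glucose, had a jejunal maximum as well. Control jejunum was at 9.71, 9.96, 9.67 and 9.99 and control ileum at 9.19, 9.54, 9.26 and 9.60. The pools did not overlap, and the difference was 0.43 (adjusted p = 0.00411, limma). In lactating rats it was 0.40 (adjusted p = 0.006, limma; 0.071 without lactating pool 3). Lactating duodenum, at 9.02, 9.45, 9.23 and 9.57, lay wholly below lactating jejunum, at 9.58, 9.87, 9.88 and 9.97. This difference of -0.51 ± 0.11 was the 1 duodenum to jejunum difference called among the 8 carriers in lactating rats (adjusted p = 0.00153, limma), where 16.9% of all clusters were called and 6.1% called lower. In controls 0 of the 8 were called between these segments by limma and 0 by the mixed model, 2 had an unadjusted p under 0.05, and 13.1% of all clusters were called.

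**Figure D2:**
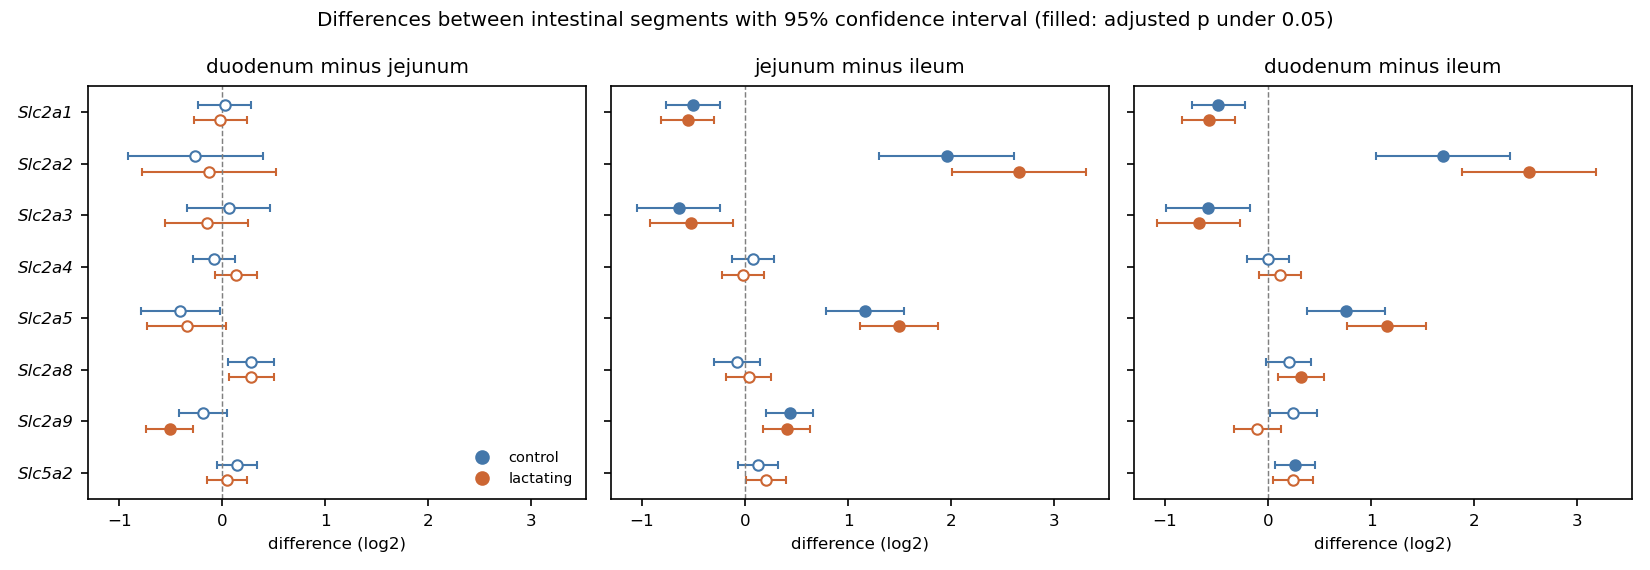
Differences in log2 signal (x axis) between intestinal segments for the 8 carriers (y axis) in control (blue) and lactating (orange) rats, with 95% confidence intervals; filled points have an adjusted p under 0.05. Slc2a2 and Slc2a5 lie to the right of 0 and Slc2a1 and Slc2a3 to the left in both comparisons with ileum.

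Slc2a1, the glucose carrier that most cell types hold at a basal level, rose toward the ileum. Control ileum was at 7.14, 7.34, 7.47 and 8.03, above all 4 control jejunal pools at 6.81, 6.93, 7.11 and 7.09. The jejunum minus ileum difference was -0.51 ± 0.13 (adjusted p = 0.00295, limma). In lactating rats it was -0.56 (adjusted p = 0.000921, limma), with ileum at 7.17, 7.44, 7.43 and 7.78. The duodenum minus ileum difference was -0.48 in controls (adjusted p = 0.00566, limma; 0.0905 without control pool 4) and -0.58 in lactating rats (adjusted p = 0.00115, limma). The control call was also lost without both pools of number 4.

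Slc2a3, a high-affinity glucose carrier known from neurons and white blood cells, was at 5.52, 6.25, 5.76 and 5.97 in control ileum and at 4.81, 5.66, 5.02 and 5.43 in control jejunum. These ranges overlapped, although ileum was higher in all 4 pool numbers, and the difference was -0.65 ± 0.20 (adjusted p = 0.0146, limma; 0.077 without control pool 3). The lactating jejunum to ileum difference was -0.52 (adjusted p = 0.0449, limma), and lost its call without control pool 3 or 4 or lactating pool 1, 2 or 3 (adjusted p between 0.0603 and 0.204). It was also lost in the mixed model (0.0718), with no pool block (0.070), with arrays centred on their medians (0.0847) and with both pools of number 4 left out (0.063). The control duodenum to ileum difference of -0.58 (adjusted p = 0.0345, limma) lost it without any 1 of the control pools or without lactating pool 2 or 3 (0.0508 to 0.100), in the mixed model (0.0578), with no pool block (0.059), with centred arrays (0.0566) and with both pools of number 4 left out (0.0899). The lactating one of -0.67 (adjusted p = 0.0152, limma) lost it without lactating pool 2 (0.0587) or 3 (0.128).

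Leukocyte markers moved with these ileal values. The mean of 6 leukocyte markers was 7.28 to 7.73 in control ileum and 6.14 to 6.53 in control jejunum, and 4 of the 6 were called higher in ileum (Cd79b, Cd8a, Ms4a1 and Ptprc). Of 7 smooth muscle markers 4 were called higher in ileum than in jejunum, and of 2 erythroid markers 1, Slc4a1, was called higher in jejunum. Of all clusters 18.2% were called higher in control ileum and 7.89% higher in control jejunum. The part of these cells in the Slc2a1 and Slc2a3 differences was not tested.

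The remaining 3 carriers had segment differences of 0.32 or less. Slc2a8, a carrier found mostly on inner membranes of the cell, was at 6.03 to 6.19 in control duodenum, 5.63 to 5.97 in control jejunum and 5.69 to 6.05 in control ileum. Its duodenum exceeded ileum by 0.32 in lactating rats (adjusted p = 0.0381, limma), a call lost without control pool 2 (0.0534) or lactating pool 1 (0.192), 2 (0.127) or 4 (0.124), without both pools of number 4 (0.155), with no pool block (0.0852) and with quantile normalization within tissues (0.0555). Slc5a2, the sodium-linked glucose carrier of the kidney tubule, stayed between 5.26 and 5.76 in all 32 pools. Its duodenum to ileum difference was 0.26 in controls (adjusted p = 0.0477, limma), a call lost without any 1 control pool or without lactating pool 2, 3 or 4 (0.0503 to 0.195), without both pools of number 4 (0.0873), with no pool block (0.0958) and with quantile normalization within tissues (0.0532). It was 0.25 in lactating rats (adjusted p = 0.0745, limma, and 0.0458 with the pool number of the labels, 1 to 4 in both states, as a term of the model). That lactating difference was called in 4 of the 15 alternatives run (lowest adjusted p = 0.00955, limma or mixed model). The lactating jejunum to ileum difference of Slc5a2, 0.20 (adjusted p = 0.115, limma), was called in 2 of 15 (lowest adjusted p = 0.0144, limma or mixed model). Slc2a4, the insulin-responsive carrier of fat and muscle, ranged from 3.58 to 4.52 over all pools, below the median of every array, and was called between no 2 segments.

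Between duodenum and ileum 5 of 8 carriers were called in controls, 3 higher and 2 lower in duodenum, with 20.8% of all clusters called, 5.3% higher and 15.5% lower. In lactating rats the numbers were also 5, 3 and 2, with 17.8% of all clusters called, 6.1% higher and 11.7% lower. In controls, Slc2a9 was 0.25 higher in duodenum, which was not called (adjusted p = 0.132, limma) but was called with pool number as a term (0.033), in the mixed model (0.0177) and among clusters with a group mean of at least 6 (0.033). The difference of the duodenum to ileum step between lactating and control rats was called for 0 of the 8 carriers by limma and by the mixed model, 1 had an unadjusted p under 0.05, and 0.34% of all clusters were called. For Slc2a2 the step was 0.83 larger in lactating rats with a 95% confidence interval from -0.09 to 1.76, and for Slc2a5 it was 0.39 larger (-0.14 to 0.93).

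In control rats 6 of 8 carriers were called between liver and the mean of the 3 segments, 1 higher in liver and 5 lower, where 46.3% of all clusters were called, 22.7% higher and 23.6% lower. Slc2a8 was the liver-rich carrier, at 7.24, 7.17, 7.51 and 7.11 in control liver and at most 6.19 in any control intestinal pool, a difference of 1.32 (adjusted p = 1.04e-13, limma). The liver minus intestine difference of Slc2a5 was -2.87, a 7.30-fold lower signal in liver (adjusted p = 4.55e-16, limma). Slc2a3 was called lower in liver, where it read 3.37 to 4.20, below the median of every array, so that no size is given for its difference (adjusted p = 1.42e-09, limma). The difference was -0.78 for Slc2a1 (adjusted p = 1.88e-07, limma) and -0.52 for Slc2a9 (adjusted p = 1.75e-05, limma). The difference of Slc2a4, -0.22 (adjusted p = 0.0283, limma), lost its call without control pool 2 (0.130) or 3 (0.303) and with arrays centred on their medians (0.0784). Slc2a2, the shared exit carrier, was at 12.29 to 12.40 in control liver and overlapped control duodenum, and its liver minus intestine difference of 0.47 was not called (adjusted p = 0.155, limma).

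Lactation was tested in each tissue as the lactating minus control difference. In liver 1 of 8 carriers was called, Slc2a5, higher in lactation, with 1.88% of all clusters called and 0.715% called higher. In duodenum, jejunum and ileum 0 of 8 were called by limma, where 0.643%, 0.808% and 1.28% of all clusters were called. The mixed model also called 0 in each of these segments, and an unadjusted p under 0.05 was found for Slc2a8 and Slc2a9 in duodenum, Slc2a8 in jejunum and Slc2a2 in ileum. The median lactation difference of the carriers was 0.05 in liver, 0.04 in duodenum, -0.03 in jejunum and -0.02 in ileum, beside 0.01, 0.04, 0.01 and 0.02 for all clusters.

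Slc2a5 in control liver was at 8.28, 8.04, 8.16 and 7.82, and in lactating liver at 8.79, 9.34, 8.95 and 8.77. Each lactating pool was above each control pool, as was the case, in either direction, for 5.21% of all clusters in liver. The means were 8.07 ± 0.20 and 8.96 ± 0.26 (SD, n = 4), a difference of 0.89 ± 0.20 (SE) or 1.85-fold (adjusted p = 0.0159, limma). The call was lost without control pool 2 (adjusted p = 0.0696), control pool 4 (0.0895) or lactating pool 2 (0.0819), with both pools of number 4 left out (0.103) and in a fit of the liver arrays alone (0.0861), while the difference stayed between 0.76 and 0.96 when any 1 pool was left out. Leukocyte markers also moved with state in liver, with list means of 5.67 to 5.94 in controls and 5.45 to 5.65 in lactation and 1 of 6 genes called, Ptprc, lower. Their part in the Slc2a5 difference was not tested. The hepatocyte list was at 13.1 to 13.2 in both states, with 0 of 8 genes called by limma or the mixed model and 0 with an unadjusted p under 0.05.

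In the intestine Slc2a5 differed less between the states. Lactating duodenum was at 10.71, 11.45, 11.13 and 11.45, and the difference was 0.13 (95% confidence interval -0.29 to 0.54). It was 0.06 in jejunum (-0.35 to 0.48) and -0.27 in ileum (-0.68 to 0.15). The test that the 4 tissues had the same lactation difference gave an adjusted p of 0.0584 for Slc2a5 (limma, F test), 0.0344 without lactating pool 1. By that test 0 of the 8 carriers were called by limma or the mixed model, 1 had an unadjusted p under 0.05, and 2.05% of all clusters were called.

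**Figure D3:**
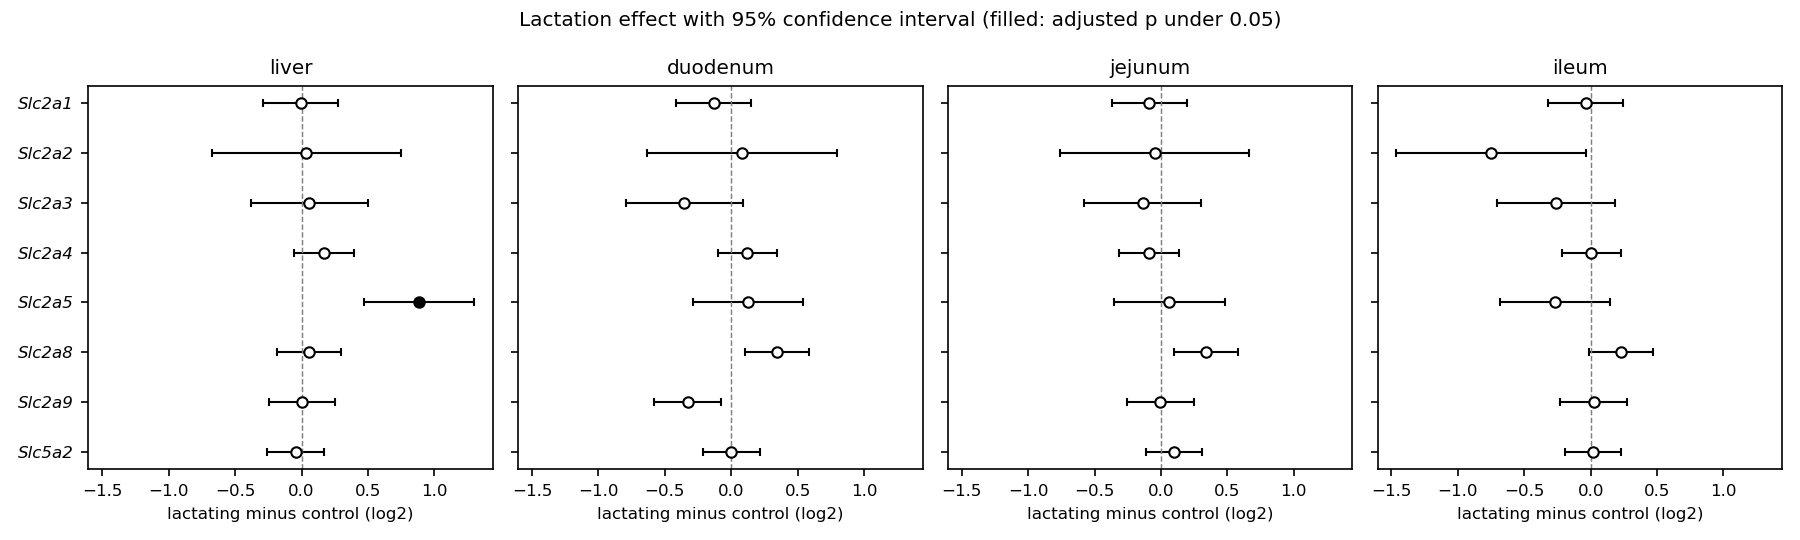
Lactating minus control difference in log2 signal (x axis) of each carrier (y axis) in the 4 tissues, with 95% confidence intervals from the fit over all 32 arrays; the filled point has an adjusted p under 0.05. The liver value of Slc2a5, 0.89, is the filled point, and the intervals of Slc2a8 in duodenum (0.35) and jejunum (0.34) lie to the right of 0.

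Slc2a8 was higher in lactation in the mean of each tissue, without a call. Lactating duodenum was at 6.36, 6.51, 6.39 and 6.50 against 6.03, 6.10, 6.06 and 6.19 in controls. Lactating jejunum was at 6.13, 6.22, 6.27 and 6.01 against 5.74, 5.63, 5.97 and 5.92. In both segments all lactating pools were above all control pools, as 1 of 8 carriers in each, where 5.78% of all clusters in duodenum and 5.37% in jejunum did not overlap in either direction. The difference was 0.35 ± 0.12 in duodenum (adjusted p = 0.27, limma) and 0.34 ± 0.12 in jejunum (adjusted p = 0.23, limma). In ileum it was 0.23 (adjusted p = 0.491, limma) and in liver 0.06, where the pools overlapped.

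Over the 4 tissues together, Slc2a8 was 0.24 ± 0.07 higher in lactation, with an adjusted p of 0.0685 (limma), or 0.0182 without lactating pool 1, 0.0132 with no pool block, 0.0213 with array quality weights and 0.0446 with quantile normalization within tissues. With pool number as a term of the model it was called (adjusted p = 0.000895, limma), as the 1 of 8 carriers called, where that model called 17.5% of all clusters. In the main model, with the pool block and without that term, 0 of 8 carriers were called over the tissues by limma. There 1 carrier had an unadjusted p under 0.05, and 2.51% of all clusters were called. The mixed model also called 0 of the carriers.

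Slc2a9 in duodenum went the other way, at 9.37, 9.77, 9.69 and 9.74 in controls and 9.02, 9.45, 9.23 and 9.57 in lactation. The pools overlapped, and each lactating pool lay below the control pool of its number. The difference was -0.33 ± 0.12 (adjusted p = 0.36, limma) and was called with pool number as a term (adjusted p = 0.0362), which called 1 of 8 carriers and 1.86% of all clusters there. The acinar markers described above moved with state in the same scrapes, and their part in the duodenal differences of Slc2a8 and Slc2a9 was not tested.

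For Slc2a2 the lactation difference was -0.75 ± 0.35 in ileum (adjusted p = 0.403, limma), where the pools overlapped and pools 3 and 4 of the lactating rats were the low ones. In the other tissues it was between -0.05 and 0.08, with 95% confidence intervals that reached up to 0.80 in size. Of the carriers without a call, Slc2a1 differed by -0.13 to 0.00 between states, Slc2a3 by -0.35 to 0.06, Slc2a4 by -0.09 to 0.17 and Slc5a2 by -0.05 to 0.10 over the 4 tissues, and none of their groups was without overlap. The mean of 7 adipocyte markers was 7.46 to 7.50 in control and 6.68 to 6.97 in lactating jejunum scrapes, and 1 of the 7 genes was called lower (Adipoq). Slc2a4 in jejunum was at 3.91, 4.11, 4.02 and 4.52 in controls and at 3.99, 4.10, 4.04 and 4.06 in lactation, and the part of adipocytes in these values was not tested.

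Lists of genes that work beside the carriers were examined next. Beside their lactation counts, 1.88% of all clusters were called in liver, 0.643% in duodenum, 0.808% in jejunum and 1.28% in ileum. Of 18 other genes of the Slc2, Slc5 and Slc50 families 10 were measured. Of these 1, Slc5a5, the sodium iodide carrier, was called in lactation, at 5.69 to 5.92 in lactating jejunum against 4.77 to 5.36 in controls (0.74 ± 0.13, adjusted p = 0.00209, limma), a call lost in the fit of jejunal arrays alone (0.124). With pool number as a term Slc5a6, the sodium-dependent vitamin carrier, was called as well in liver (0.42, adjusted p = 0.0106, limma). Slc5a8, a sodium-linked carrier of lactate and short-chain fatty acids, had the steepest segment difference of this list and is named after its values were seen. Its signal was 8.79 to 9.70 in control ileum and 3.93 to 4.53 in control jejunum, and it was not called in lactation in any tissue.

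The brush border disaccharidases split dietary disaccharides before uptake, and 4 of 6 listed symbols were measured (Lct, Mgam2, Si and Treh). All 4 were called higher in control jejunum than in control ileum, as were 7.89% of all clusters. All 4 were called lower in control liver than in intestine, as were 23.6% of all clusters. Trehalase (Treh) differed by 3.99 (adjusted p = 4.93e-13, limma), Lct by 3.55 (adjusted p = 1.93e-06, limma), sucrase-isomaltase (Si) by 0.51 (adjusted p = 0.000955, limma) and Mgam2 by 0.45 (adjusted p = 0.0343, limma). In lactation 0 of 4 were called in each tissue by limma or the mixed model, 1 (Lct, in ileum) had an unadjusted p under 0.05, and with pool number as a term Lct was called lower in ileum (-1.76, adjusted p = 0.0352, limma).

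Of 19 listed genes of the first steps after sugar entry 9 were measured. In control rats 5 were called higher in jejunum than in ileum and 2 lower, where 7.89% of all clusters were called higher and 18.2% lower. The 5 were G6pc1 (3.64), Fbp1, a gluconeogenic phosphatase (1.29), Khk, the kinase that traps fructose (1.28), Slc37a4, the glucose-6-phosphate carrier of the endoplasmic reticulum (1.01), and Galm, the aldose mutarotase (0.82). The 2 were Hk2, a high-affinity hexokinase (-1.70), and G6pc3 (-0.41). Khk was at 11.63 to 11.99 in liver in both states, and in lactation 0 of 9 genes were called in any tissue by limma or the mixed model, with an unadjusted p under 0.05 for 4 in liver, 1 in duodenum, 0 in jejunum and 3 in ileum. With pool number as a term Fbp1 was called lower in lactating ileum (-0.39, adjusted p = 0.0203, limma). Of 4 subunits of the sodium pump, which keeps the gradient for the Slc5 carriers, 3 were measured, and 0 were called in lactation in any tissue by limma or the mixed model, with an unadjusted p under 0.05 for 1 in liver and 1 in jejunum. With pool number as a term Atp1b1 was called higher in liver (0.35, adjusted p = 0.0378, limma). The segment values of the last 2 lists are shown although their genes were not called in lactation, and these genes were chosen after their values were seen.

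Among 24 genes of sugar sensing and regulation of the carriers, 15 were measured, and Trpm5 and Gnat3, both of taste-type chemosensing, fell in lactating jejunum and ileum. Tas1r3, a sweet receptor subunit of the same list, is named although it was not called and overlapped between the states in all 4 tissues. In jejunum it read 4.21 to 4.49 in controls and 4.35 to 4.61 in lactation, below the median of every array. Trpm5, the cation channel through which sweet taste receptors act in taste and tuft cells, was at 5.95 to 6.45 in control ileum and 5.14 to 5.29 in lactating ileum, without overlap. Its lactation difference was -0.45 in duodenum (adjusted p = 0.0139, limma), -0.61 in jejunum (adjusted p = 0.000598, limma) and -0.94 in ileum (adjusted p = 1.40e-06, limma). The ileal call of Trpm5 stood in all alternatives tried. The duodenal call was lost without any 1 of control pools 1, 3 and 4 or lactating pools 1, 3 and 4 (adjusted p between 0.0533 and 0.117), without both pools of number 4 (0.163) and in the fit of duodenal arrays alone (0.160), and the jejunal call in the fit of jejunal arrays alone (0.146). In liver, where Trpm5 read 4.56 to 4.85 over all pools, the difference was 0.00.

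Gnat3, gustducin, the G protein subunit of taste cells, was at 5.13 ± 0.35 (SD, n = 4) in control jejunum and 3.96 ± 0.20 in lactating jejunum. The pools of these groups did not overlap, and Gnat3 was called lower in lactating jejunum (adjusted p = 0.000604, limma). The lactating jejunal pools read below the median of every array, so that no size is given for this difference. In ileum Gnat3 read 6.05 to 6.65 in controls and 4.56 to 5.68 in lactation, a difference of -1.23 (adjusted p = 0.000271, limma). The lowest lactating ileal pool was also below the median of every array. Both calls of Gnat3 were lost in the fit of that tissue's arrays alone (0.0751 in jejunum and 0.105 in ileum). In duodenum both states lay between 3.11 and 3.63, below the median of every array, and the difference of 0.11 was not called. At such values the lack of a call says little about a change.

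Markers of other cells moved with state in the intestinal scrapes, where 0.643% of all clusters were called in duodenum, 0.808% in jejunum and 1.28% in ileum. Of 6 leukocyte markers 1, Ptprc, was called lower in lactating jejunum (-0.77, adjusted p = 0.00341, limma) and in lactating duodenum (-0.60, adjusted p = 0.0414, limma), and the list mean was 6.14 to 6.53 in control and 5.79 to 6.46 in lactating jejunum. Of 3 skeletal muscle markers 1, Acta1, was called higher in lactating jejunum (1.88, adjusted p = 2.63e-06, limma) and ileum (0.96, adjusted p = 0.0132, limma), and the list mean was 5.97 to 6.33 in control and 6.65 to 6.93 in lactating jejunum. In ileum Tnnt3 of the same list was lower in lactation without overlap, and Ckm overlapped. The ileal list mean was 5.83 to 6.13 in control and 5.99 to 6.24 in lactating rats. Of 7 adipocyte markers Adipoq was called lower in jejunum and Pck1 lower in ileum (-1.35, adjusted p = 0.00256, limma). Pck1 is also a gluconeogenic enzyme and was lower without overlap in lactating liver and jejunum as well. In ileum Plin1 was lower without overlap, and Adipoq, Cidec, Fabp4, Lep and Lipe overlapped between the states. Alb was called lower and Ttr higher in jejunum, and Slc10a2 higher in duodenum. The part of these cells in the Trpm5, Gnat3 and Insr differences was not tested.

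**Figure D4:**
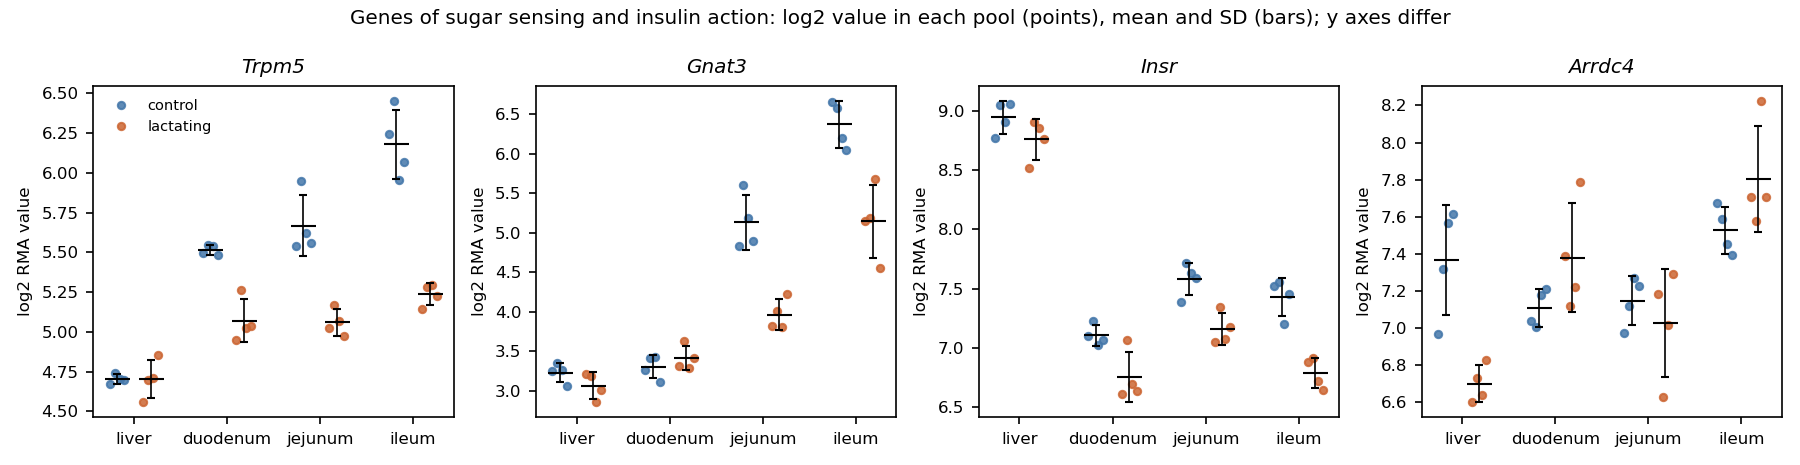
Log2 RMA value (y axis, its own scale in each panel) of Trpm5, Gnat3, Insr and Arrdc4 in every pool of control (blue) and lactating (orange) rats by tissue; points are pools, bars the mean and SD of 4 pools. Control and lactating ileal pools of Trpm5, Gnat3 and Insr are apart, and Arrdc4 is apart in liver.

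Insr, the insulin receptor, was at 7.20 to 7.55 in control ileum and 6.64 to 6.91 in lactating ileum, a difference of -0.64 ± 0.11 (adjusted p = 0.000863, limma), whose call was lost in the fit of ileal arrays alone (0.0867) and without both pools of number 4 (0.0743). The difference was -0.42 in jejunum (adjusted p = 0.0555, limma) and -0.35 in duodenum (adjusted p = 0.184, limma), and both were called with pool number as a term (adjusted p = 0.00737 and 0.0298). Srebf1, a regulator of lipid synthesis that answers to insulin, was higher in lactating jejunum, at 8.81 to 8.98 against 8.03 to 8.22 (0.71, adjusted p = 0.0263, limma), a call lost without control pool 2, 3 or 4 or lactating pool 2, 3 or 4 (adjusted p between 0.0568 and 0.121), without both pools of number 4 (0.196), without ileal arrays (0.0665) and in the mixed model (0.0773). Arrdc4, an arrestin-family target of the glucose sensor ChREBP, was lower in lactating liver, at 6.60 to 6.83 against 6.97 to 7.61 (-0.67, adjusted p = 0.0181, limma), a call lost without control pool 2, 3 or 4 or lactating pool 1 (0.0706 to 0.124), without both pools of number 4 (0.0724), with quantile normalization within tissues (0.0693) and in the fit of liver arrays alone (0.202). In all, 1 of the 15 genes was called lower in liver, 1 lower in duodenum, 1 higher and 2 lower in jejunum and 3 lower in ileum, where 1.88%, 0.643%, 0.808% and 1.28% of all clusters were called. With pool number as a term the counts were 1 lower in liver, 2 lower in duodenum, 1 higher and 3 lower in jejunum and 3 lower in ileum, where that model called 4.13%, 1.86%, 2.1% and 3.78% of all clusters. The median difference of the list was -0.14 in liver, 0.02 in duodenum, -0.12 in jejunum and -0.13 in ileum.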

How the data were processed

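The authors ran RMA in Affymetrix Expression Console (extended gene level; background correction, quantile normalization, summary over probes) and deposited the log2 values of 19434 transcript clusters on 32 arrays. It has 0 columns of other samples, and values were used as deposited. Groups, pool numbers and tissues came from the labels. Clusters were named through the platform annotation (13327 with 1 symbol, 620 with several, 5487 with none); clusters with several symbols stayed unnamed.

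A linear model of every cluster was fitted with limma 3.58.1 under R 4.3.3 (statmod 1.5.0), with 8 group means and the pool, the RNA of 4 rats, as a random block (consensus correlation 0.163). Empirical Bayes shrinkage of the variances had a prior of 3.24 degrees of freedom, and p-values were Benjamini-Hochberg adjusted over all 19434 clusters. The script was tested on simulated data. Signal over background and 4 pools per group limit the precision.

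Pools carry the numbers 1 to 4 in both states. Deviations of same-numbered pools of the 2 states correlated at 0.105 to 0.555, other pools at -0.347 to 0.104, and the first principal component (30.1%) set the 8 arrays of number 4 apart. Within single tissues same-numbered pools correlated at 0.529 to 0.582 for number 4 and at 0.300 to 0.441 for number 1. For number 2 the values were 0.082 to 0.254 and for number 3 they were 0.040 to 0.173. In liver and jejunum control pool 3 correlated more with another lactating pool (0.137 and 0.100). So did control pool 2 in liver, at 0.098 with lactating pool 1 and 0.082 with lactating pool 2. The labels state no pairing. The numbers were nevertheless taken to pair pools. The fit with the pool (replicate) number as a term, added to the random pool block, is given where it changed a call.

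The alternatives tried were other models (no pool block, the replicate number as a term, the study's repeated measures mixed model, each tissue alone), quantile normalization within tissues, median centring, array weights, a minimum group mean of 6, and leaving out pools. The study's thresholds were also tried, on the unadjusted p-values of limma and not of the mixed model. All members of the carrier group and the genes of the lists beside the carriers that were called for lactation in a tissue are named; cell type markers are given as lists, with called genes where they moved with a result. Members and lists were chosen with earlier results of these data known. Figures were made in Python 3.11.15 with matplotlib 3.10.9.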

Additional observations from a re-analysis of the deposited data

Results flagged for a closer look

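A single value stood apart from its group: Slc2a1 in lactating liver, where pool 2 read 6.62 and the other 3 pools lay between 6.29 and 6.31. The gap of 0.31 was 0.933 of the range of the group. Of the 64 groups of 4 pools examined (8 carriers in 8 groups) this was the 1 whose gap passed the limit for a flag. That limit, of the Dixon test, is smaller than this gap and is passed by chance in about 1 of 20 groups.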

How the results depend on the processing

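Of 112 carrier values tested, 28 were called, 18 of them under every alternative run and 10 not under at least 1. No value changed sign while called. Of the uncalled values 28 changed sign under at least 1 alternative, with a size of at most 0.14 after the change. In liver the count of carriers called was 0 (main 1, Slc2a5) in the fit of liver arrays alone and without both pools of number 4. It was also 0 by the study's thresholds, applied here to the unadjusted p-values of limma. These thresholds also ask for a state effect over all tissues. In duodenum the count was 1 (main 0) with the replicate number in the model (Slc2a9) and 1 by these thresholds on limma p-values (Slc2a8), and in jejunum 1 by the latter (Slc2a8). By its own mixed model the paper lists Slc2a8 as changed in duodenum and not in jejunum. Over the 4 tissues the count was 1 (main 0, Slc2a8) with no pool block, with the replicate number, with quantile normalization within tissues and with array weights. For the interaction it was 1 (main 0, Slc2a5) with quantile normalization within tissues (adjusted p = 0.0333) and when clusters needed a group mean of at least 6 (0.0144). Between control duodenum and jejunum it was 1 (main 0) with quantile normalization or the minimum mean (Slc2a8) and without ileal arrays (Slc2a2), and between lactating duodenum and jejunum 2 (main 1) in the mixed model and with the minimum mean. Between control duodenum and ileum it was 3 (main 5) with no pool block and 2 without both pools of number 4. As a term of the model, the replicate number changed no call of a carrier beyond these and the 2 given with the duodenum to ileum steps (Slc2a9 in controls, adjusted p = 0.033, and Slc5a2 in lactating rats, 0.0458). The cause was not tested for these changes. With 1 pool left out, the counts were 0 to 1 in liver, over the tissues and for the interaction, 2 to 5 between control duodenum and ileum, 3 to 5 between lactating duodenum and ileum, 4 to 5 between jejunum and ileum of either state, and as in the main fit in the other comparisons, except 5 to 6 between liver and intestine. Each carrier had 1 cluster, so the choice of another cluster could not be tried. Leaving out both number 4 pools and the ileal arrays was chosen after seeing the data. Slc2a4 in all tissues, Slc2a3 in liver and Gnat3 in liver, duodenum and lactating jejunum read under every array's median. There signal over background limits what can be detected.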
